A study of Mus musculus with 6 samples.

Results

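The genes described here are 33 effectors of p53, the transcription factor that answers DNA damage and other stress. They were chosen by symbol from a list of genes that p53 is known to activate in mammals and were sorted by what their products do. The stress and growth arm held 12 genes, the death arm 9, the DNA repair arm 6 and the metabolism arm 6. All 33 were among the 25239 rows of the gene table, and all 33 passed the filter on low counts that left 14065 genes for testing. The libraries came from primary lung fibroblasts of the mouse, 3 of them quiescent and 3 senescent after Nutlin 3a, a small molecule that frees p53 from its ubiquitin ligase Mdm2. Both groups were grown in DMEM with 10% serum at 5% oxygen. The induction on the labels ran from 16 hours of RO3306, which blocks Cdk1, through 48 hours of Nutlin 3a to BI-2536, a Plk1 inhibitor at 100 nM directed at cells that still divided, for 12 days in total. The quiescent samples carry that same wording, so their own treatment is not known here, nor are strain, sex, age, and whether the replicates were separate cultures or animals. The p-values therefore speak only of the spread between these libraries, which may be technical.

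In unstressed cells p53 is kept scarce by Mdm2. Once released, it binds DNA as a tetramer and switches on genes with unlike ends: arrest and stress control, repair of damaged bases, antioxidant and mitochondrial metabolism, and death through the cell surface or the mitochondrion. Nutlin 3a reaches p53 without breaking DNA, and senescence is the state in which arrest persists while the cell stays alive. Many of these genes also answer to other factors, among them ATF4 in the integrated stress response and the growth factor pathways behind immediate early genes.

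Each library held 93736593 to 109706025 counts, of which 18219831 to 21386546 lay outside 3 rows treated here as ribosomal. They were the 45S ribosomal precursor (Rn45s), Lars2 and Mir6236. Levels are given as CPM, each library's counts scaled to a common total outside those rows, adjusted by TMM factors. The 9 fibroblast markers summed to 25300 to 26100 CPM in quiescent and 21100 to 23400 CPM in senescent libraries. That sum joins 3 markers called higher and 5 called lower. Col3a1, Pdgfra and Pdgfrb had log2 fold changes of -1.95, -1.45 and -1.01, and Fn1 had 0.94. Leukocyte markers summed to 21.1 to 22.4 and 57.5 to 76.4 CPM. All 5 of the 10 leukocyte markers that were tested rose. Of the untested ones, Ptprc, Adgre1, C1qb and Itgam lay higher in every senescent library than in any quiescent one, and C1qa overlapped. Ptprc and C1qa, which define leukocytes and macrophages, had at most 10 counts in any library. Endothelial markers summed to 27.0 to 29.9 and 18.0 to 26.2 CPM. Of the 4 tested among 7, 1 was called higher (Cdh5, means of 1.23 and 6.11 CPM) and 1 lower (Tek, 17.9 and 2.80 CPM). Epithelial markers summed to 1.68 to 2.08 and 2.82 to 4.07. The higher epithelial sum was Krt18, the 1 tested marker of 7. The other 6 summed to 0.594 to 1.29 and 0.105 to 0.764, with Krt8 lower in every senescent library, Epcam and Cdh1 at 10 counts or fewer and Nkx2-1 at 0. Mesothelial markers summed to 31.8 to 36.2 and 46.3 to 57.2, with 1 of 5 called higher (Krt19) and 2 lower (Upk3b and Msln), and without Krt19 to 27.5 to 31.5 and 14.5 to 19.4. Smooth muscle and pericyte markers summed to 133 to 145 and 227 to 366. Their part in the results was not tested, and in bulk libraries fewer cells of a type cannot be told apart from less RNA per cell.

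The p53 effectors did not move as a block. In edgeR's quasi-likelihood test, at a threshold of 0.05 on the adjusted p, senescence came with more transcript of 10 of the 33 genes and less of 15, and 8 were not called. Over all tested genes 74.5% were called, 36.7% as higher and 37.8% as lower, so the share called is close to that of any gene here. The median log2 fold change was -0.04, against -0.02 over all tested genes. At least 2-fold changes were found for 5 higher members (Plk2, Plk3, Perp, Btg2 and Gdf15) and 6 lower ones (Sesn1, Dcxr, Ddb2, Fas, Pidd1 and Fdxr), where 11.0% and 14.3% of all tested genes went that far. The groups did not overlap for 26 members, against 78.2% of all tested genes. The 3 senescent libraries lay above all quiescent ones for 11 members and below them for 15, against 38.2% and 40.0%. With library totals in place of TMM, which moved the median of all genes to -0.32, 7 members were higher and 22 lower, against 2952 and 7435 of the 14065 tested genes.

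**Figure D1:**
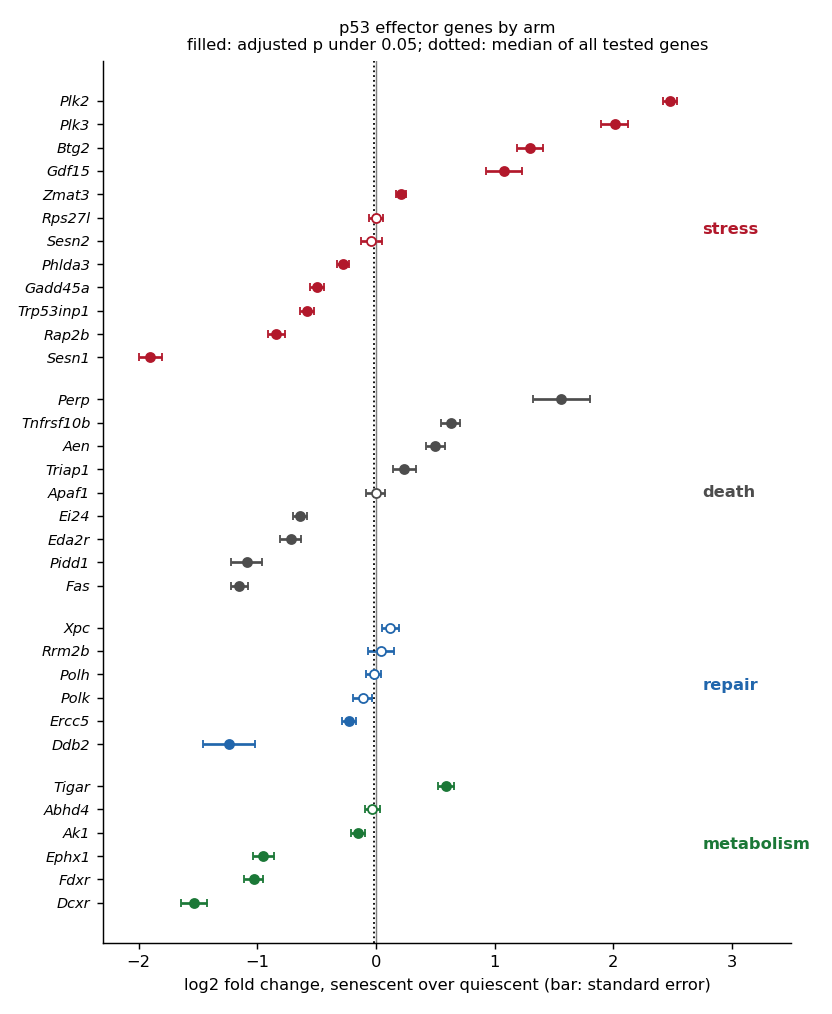
The log2 fold change of each of the 33 genes is plotted on the x axis with its standard error, senescent over quiescent, sorted within 4 arms. Filled points passed at an adjusted p under 0.05 and open points did not, and the dotted line is the median of all tested genes. The stress arm runs from Sesn1 at -1.90 to Plk2 at 2.48, and in the repair arm 4 of 6 points are open.

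In the stress and growth arm 5 genes rose, 5 fell and 2 were not called, and this arm held both ends of the whole list. Among all tested genes the split was similar, with 36.7% higher and 37.8% lower. The Polo-like kinase genes Plk2 and Plk3, Btg2 and Gdf15 rose by more than 2-fold, and the sestrin gene Sesn1 fell the most of all 33. The median of the arm was -0.02. Of the 4 arms it was the one whose summed level was higher in senescent libraries.

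Plk2 encodes a stress-responsive kinase unlike the mitotic kinase Plk1, and lies on chromosome 13 (110395046 to 110400844, GRCm38, forward strand). Its level was 97.1, 109 and 98.4 CPM in the quiescent libraries and 557, 557 and 581 CPM in the senescent ones. The senescent libraries were close to each other and far above the quiescent ones, with a log2 fold change of 2.48 (standard error 0.06, adjusted p = 3.58e-11 in edgeR). Plk3, the related kinase gene on chromosome 4 (117128655 to 117133963), stood at 16.0, 15.7 and 15.8 CPM and rose to 59.6, 56.2 and 74.7. The quiescent values were nearly equal and senescent replicate 3 was the highest, with a log2 fold change of 2.01 (standard error 0.11, adjusted p = 2.61e-08 in edgeR).

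Btg2, an antiproliferative gene whose product binds the CCR4-NOT deadenylase (chromosome 1, 134075170 to 134079120), measured 56.3, 58.5 and 64.5 CPM in quiescent libraries. It reached 135, 130 and 174 CPM in senescent ones, with replicate 3 again on top and no overlap between groups. The log2 fold change was 1.30 (standard error 0.11, adjusted p = 1.06e-05 in edgeR). Gdf15, which encodes a secreted stress hormone of the TGF-beta superfamily (chromosome 8, 70629393 to 70632456), was low in both states, at 4.80, 4.39 and 4.96 CPM and then 10.0, 7.82 and 11.9. Its counts were 97 to 100 and 133 to 233, and the increase of 1.08 on the log2 scale (standard error 0.15) was larger than the spread of either group. Zmat3, an RNA-binding zinc finger gene, rose by 0.21 (standard error 0.04), from 197 ± 2.63 to 228 ± 0.933 CPM (SD, n = 3 per group), but had a log2 fold change of -0.08 under library totals.

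Sesn1 encodes a sestrin, a protein that restrains mTORC1 when nutrients are short and helps against oxidants (chromosome 10, 41809935 to 41908424). It went from 25.7, 25.1 and 27.9 CPM in quiescent libraries to 7.46, 7.59 and 6.06 CPM in senescent ones. All senescent values were far below all quiescent values, with a log2 fold change of -1.90 (standard error 0.10, adjusted p = 1.07e-08 in edgeR). Its relative Sesn2, also a target of ATF4, had 42.0 ± 2.49 and 40.8 ± 5.32 CPM (SD, n = 3), overlapping between groups, and was not called (log2 fold change -0.04, standard error 0.09). Without senescent replicate 3, Sesn2 passed as lower, at -0.15 (adjusted p = 0.0366 in edgeR).

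The other fallen genes of this arm changed by less than 2-fold. Rap2b, a small GTPase gene of the Ras superfamily, fell by 0.84 on the log2 scale, Trp53inp1, a gene of autophagy and of p53 phosphorylation, by 0.58, and Gadd45a, a growth arrest and damage gene, by 0.50. Phlda3, which encodes an inhibitor of Akt at the membrane, fell by 0.28, from 78.1 ± 2.95 to 64.2 ± 0.795 CPM. Rap2b shares 54.5% of its exon bases with the opposite-strand gene B430305J03Rik and Gadd45a shares 19.1% with E230016M11Rik, which had at most 20 counts in any library. Ei24, Rrm2b, Tigar, Ephx1 and Plk3 share 3.3% to 8.0% with other genes. The sources used here do not say whether counting used strand, so reads of these partners cannot be told apart. Rps27l, a ribosomal protein-like gene, had 70.6 ± 4.28 and 70.5 ± 4.66 CPM with a log2 fold change of 0 (standard error 0.06, adjusted p = 0.995 in edgeR). Its count is uncertain because of its near copy Rps27 and related pseudogenes; the Rps27 row had at most 27 counts in any library. Under library totals Rps27l had a log2 fold change of -0.30.

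Short sequences around the transcription starts were read for the members with a RefSeq promoter entry (GRCm38.p6), which were 26 of 33 with 35 start windows from 250 bases before to 50 after a start. They are shown for the members with a cAMP response element, which include the most risen gene, and for those with a paired p53 element, which include the most fallen one. The cAMP response element, searched as TGACGTCA, a palindrome that reads the same on both strands, was found at Btg2 and Plk2 and at no other of the 26, and in 1.79% of all 32851 windows. In both it lies upstream of the annotated gene, at -166 to -159 from the Btg2 start and at -62 to -55 from the Plk2 start. Capitals mark the element in these 60-base stretches, written in the direction of the gene, at chr1:134079288-134079347 (reverse strand) and chr13:110394956-110395015 (forward strand).
Btg2: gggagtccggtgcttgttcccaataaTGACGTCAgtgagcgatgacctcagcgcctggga
Plk2: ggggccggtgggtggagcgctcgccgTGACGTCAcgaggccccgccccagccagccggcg
The p53 element was searched as a pair of adjacent copies of the 10-base p53 decamer consensus, also its own reverse complement, with at most 3 mismatches of 20 and the C and G of each core kept. It was found at Sesn1, Rps27l, Tigar and Aen, and in 1.38% of all windows. The Sesn1 match (17 of 20 bases, chr10:41887246-41887305 for the stretch shown) lies in an intron of the GENCODE gene, before the second of its 2 RefSeq starts. The Rps27l match (19 of 20, chr9:66946276-66946335) is intronic too. That of Tigar (17 of 20, chr6:127109726-127109785, reverse strand) lies upstream of the gene, and that of Aen (17 of 20, chr7:78895937-78895956) in an exon.
Sesn1: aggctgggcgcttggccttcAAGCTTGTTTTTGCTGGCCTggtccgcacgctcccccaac
Rps27l: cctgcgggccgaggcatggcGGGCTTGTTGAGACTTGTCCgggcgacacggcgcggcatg
Tigar: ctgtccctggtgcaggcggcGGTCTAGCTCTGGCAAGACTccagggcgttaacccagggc
Aen: GGGCTTGTCCGGGCAAGGAG
Of the genes with these 4 matches, Aen and Tigar were higher, Sesn1 lower and Rps27l not called. Over the 35 member windows the paired element was in 5, of which 2 are overlapping Aen windows that hold the same site. A single exact decamer, which can overlap a paired match, was in 9 of the 35, at 8 members, and in 8.36% of all windows. Both Aen windows were counted there too. An ATF4 element (TGATGNAA, both strands) stood at Polk only, against 3.97% of all windows, and an AP-1 site (TGANTCA, both strands) at Ak1 and Fas, against 7.81%. The CCAAT box was in 16 of the 35 member windows, against 37.41% of all windows. The TATA box (TATAAA) was in 3, against 13.62%. A match describes letters in the window and is not a bound site, and sequence outside these windows was not searched.

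The death arm was evenly divided, with 4 genes higher, 4 lower and 1 not called, and a median of 0. All tested genes were split evenly too, with 36.7% higher and 37.8% lower. The receptors split: Fas and Eda2r fell, and Tnfrsf10b rose. Behind the receptors, Pidd1 and Ei24 fell, Perp, Aen and Triap1 rose, and Apaf1 was not called.

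Fas, the receptor of Fas ligand (chromosome 19, 34290666 to 34327772), measured 35.9, 38.2 and 38.6 CPM in quiescent libraries and 15.6, 17.1 and 18 in senescent ones. No senescent library came near a quiescent one, and the log2 fold change was -1.15 (standard error 0.07, adjusted p = 6.59e-08 in edgeR). Eda2r, an X-linked receptor gene of the same superfamily that binds ectodysplasin A2, fell by 0.72, from 73.5 ± 1.55 to 44.5 ± 7.01 CPM. Tnfrsf10b, the mouse receptor of the death ligand TRAIL and a target of both p53 and the integrated stress response, rose by 0.63, from 46.9 ± 1.17 to 72.6 ± 8.35 CPM.

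Pidd1, a scaffold of the caspase 2 platform (chromosome 7, 141438113 to 141444025), had 12.6, 10.2 and 9.87 CPM in quiescent libraries and 5.46, 4.76 and 5.04 in senescent ones, with no overlap between the groups. The log2 fold change was -1.09 (standard error 0.13, adjusted p = 9.31e-06 in edgeR). Perp, which encodes a tetraspan membrane protein of cell junctions and p53-dependent death (chromosome 10, 18845020 to 18857073), was scarce in every library. Its CPM were 1.48, 1.15 and 1.19 in quiescent and 4.36, 4.35 and 2.60 in senescent libraries, from 24 to 30 and 51 to 83 counts. Senescent replicate 3 was the lowest of its group yet above every quiescent one. The log2 fold change was 1.56 (standard error 0.24, adjusted p = 9.97e-05 in edgeR), and 1.78 without replicate 3. Perp is an epithelial junction gene as well. Of the epithelial markers Krt18 was higher, at 1.04 and 3.01 CPM, and the other 6 summed lower in the senescent group mean, with Epcam and Cdh1 near 0.

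Ei24, an endoplasmic reticulum gene of autophagy and death, fell by 0.64 on the log2 scale, from 102 ± 1.36 to 65.2 ± 5.42 CPM. Aen, an apoptosis-enhancing nuclease gene, rose by 0.50, from 95.0 ± 2.70 to 134 ± 17.6 CPM, and did not pass under library totals (0.20, adjusted p = 0.115 in edgeR). Triap1, which encodes a small mitochondrial protein that counters apoptosis, was the gene nearest the threshold. It rose by 0.24 (adjusted p = 0.0467 in edgeR), but did not pass in DESeq2 (adjusted p = 0.0751), and had -0.05 under library totals. Without quiescent replicate 1 it was at 0.15 (adjusted p = 0.211 in edgeR), and it also failed without quiescent replicate 3 or senescent replicate 1. Apaf1, the core of the apoptosome, had 65.3 ± 0.0614 and 65.0 ± 8.60 CPM, with overlapping groups and a log2 fold change of 0 (standard error 0.08).

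The repair arm was the quietest of the 4. Over all tested genes 36.7% were called higher and 37.8% lower. Ddb2 and Ercc5 fell, 4 genes were not called, and no gene was called higher in edgeR, which also gave 0 at an unadjusted p under 0.05; DESeq2 and limma-voom gave 0 higher as well. Ddb2 encodes the ultraviolet damage sensor of global genome repair (chromosome 2, 91211572 to 91236982). It had only 1.98, 2.13 and 1.79 CPM in quiescent and 0.683, 0.882 and 0.917 CPM in senescent libraries, from 36 to 48 and 13 to 18 counts. The groups were apart, with a log2 fold change of -1.24 (standard error 0.22, adjusted p = 0.000326 in edgeR). Ddb2 shares 23.8% of its exon bases with Acp2 on the opposite strand, a lysosomal phosphatase gene that was more abundant (56.0 ± 1.84 and 28.9 ± 4.13 CPM) and fell by 0.95. Whether Acp2 reads entered the Ddb2 count was not tested.

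Ercc5, the endonuclease gene that cuts on the 3′ side of a lesion, fell by 0.23 (standard error 0.06, adjusted p = 0.00492 in edgeR), from 40.5 ± 0.909 to 34.4 ± 1.68 CPM. Xpc, which recognises distorted DNA in the same pathway, had 23.9 ± 0.576 and 25.9 ± 1.15 CPM. Its senescent libraries lay above the quiescent ones but it missed the threshold (log2 fold change 0.12, adjusted p = 0.13 in edgeR) and had -0.18 under library totals. The translesion polymerase genes Polh and Polk had log2 fold changes of -0.02 and -0.11, each with overlapping groups. Without quiescent replicate 3, Polk passed as lower (-0.18, adjusted p = 0.0429 in edgeR), as it did under upper quartile scaling. Rrm2b, the p53-inducible ribonucleotide reductase subunit that supplies dNTPs outside S phase, had 15.0 ± 1.85 and 15.5 ± 1.80 CPM (log2 fold change 0.04, standard error 0.11). Under library totals Rrm2b had -0.26, and 5 genes of this arm were called lower, where 52.9% of all tested genes were.

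The metabolism arm had 4 genes lower, 1 higher and 1 not called, against 37.8% lower and 36.7% higher over all tested genes. Its median was -0.55, and Ak1, among the lower ones, only just passed. Dcxr, which encodes the xylulose reductase of the glucuronate pathway (chromosome 11, 120725399 to 120727281), had 16.5, 16.7 and 14.2 CPM in quiescent and 5.94, 5.23 and 5.14 CPM in senescent libraries. Every senescent value was well under the lowest quiescent one, with a log2 fold change of -1.53 (standard error 0.11, adjusted p = 1.40e-07 in edgeR). Fdxr, ferredoxin reductase of mitochondrial iron-sulphur and steroid metabolism (chromosome 11, 115268024 to 115277050), went from 20.6, 20.6 and 20.9 CPM to 9.72, 11.1 and 9.73. Both groups were tight and apart, and the log2 fold change was -1.03 (standard error 0.08, adjusted p = 4.15e-07 in edgeR).

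Ephx1, the microsomal epoxide hydrolase gene of detoxification, was the most abundant member in quiescent libraries and fell by 0.95 on the log2 scale. Its CPM were 376, 353 and 337 in quiescent and 197, 197 and 156 in senescent libraries, with senescent replicate 3 lowest. Tigar, a phosphatase gene that steers glucose from glycolysis toward NADPH supply, was the risen gene of this arm. It went from 14.1, 13.8 and 13.8 CPM to 20.9, 20.6 and 21, a tight increase of 0.59 on the log2 scale (standard error 0.07, adjusted p = 1.39e-05 in edgeR). Ak1, a cytosolic adenylate kinase gene, had a log2 fold change of -0.15 that just passed (adjusted p = 0.0374 in edgeR). It did not pass in DESeq2 (adjusted p = 0.0937), nor without any one of the 3 quiescent libraries or senescent replicate 1 or 3, and without senescent replicate 3 it was at -0.08. Abhd4, a hydrolase gene of N-acyl phospholipids, had 58.5 ± 3.91 and 57.3 ± 2.20 CPM with overlapping groups (log2 fold change -0.03, standard error 0.06).

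**Figure D2:**
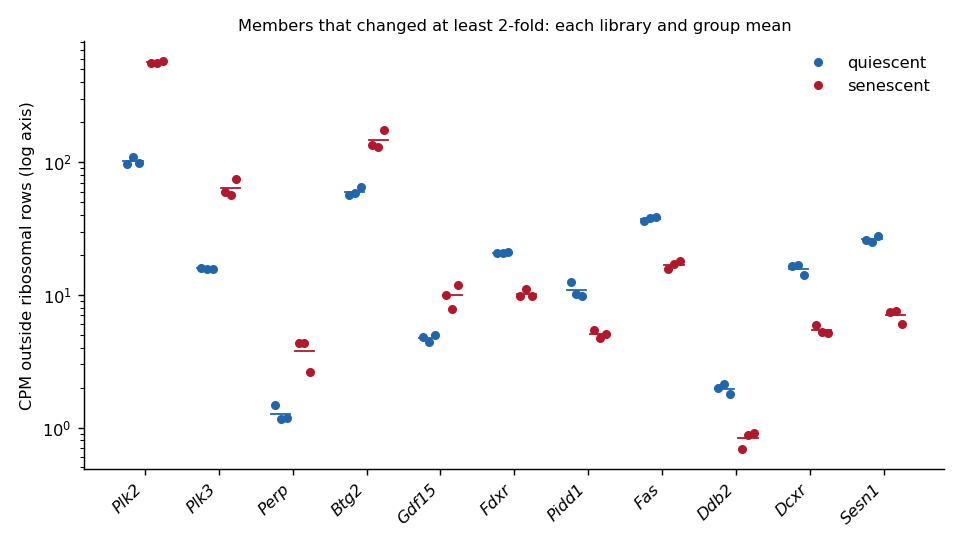
CPM on a log axis is plotted for each library (points) with the group mean (lines) for the 11 genes that changed at least 2-fold. The groups do not overlap for any of the 11, from Plk2 near 557 to 581 CPM in senescent libraries down to Ddb2 at 0.683 to 0.917.

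Levels of different genes were compared as CPM per kilobase of merged exons, called length-scaled levels here. In quiescent libraries Ephx1 was first at 182 ± 10.1, followed by Rps27l at 86.5 ± 5.25, Ak1 at 71.9 ± 2.10 and Phlda3 at 50.1 ± 1.89 (SD, n = 3). In senescent libraries Plk2 had moved from rank 6 to rank 1, at 126 ± 3.02, with Ephx1 at 94.1 ± 12.0, Rps27l at 86.4 ± 5.71 and Ak1 at 64.6 ± 5.15 behind it. Plk3 moved from rank 25 to 7 and Dcxr from 14 to 26. Perp was last in quiescent and Ddb2 last in senescent libraries. Of 32 neighbouring pairs in this order, 18 had no overlap between the values of the 2 genes over the quiescent libraries, and 13 over the senescent ones. The order of many close neighbours is therefore not fixed by this measure. A pair that overlaps can still keep its order within each library, which was not counted.

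Summed over an arm, the length-scaled level of the stress genes was 294 ± 5.72 in quiescent and 416 ± 14.9 in senescent libraries (SD, n = 3). Plk2 alone made most of that difference: without it the sums were 271 ± 5.10 and 290 ± 12.0, with ranges of 265 to 275 and 280 to 303. The metabolism sum went from 297 ± 8.89 to 190 ± 17.5, and from 115 ± 1.47 to 96.2 ± 5.77 without Ephx1. The death sum was 96.9 ± 1.79 and 87.6 ± 5.44, and 78.6 ± 1.11 and 79.4 ± 5.15 without Fas. The repair sum was small, at 26.4 ± 0.815 and 24.7 ± 0.456, with ranges of 25.5 to 27.1 and 24.4 to 25.3 that did not overlap. Without Ercc5 it was 19.5 ± 0.704 and 18.9 ± 0.268, with overlapping ranges. These sums are descriptions and were not tested.

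**Figure D3:**
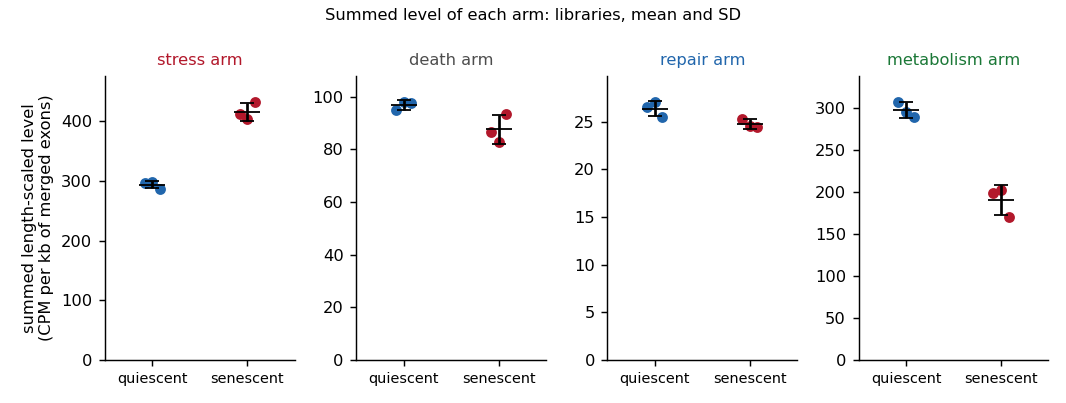
The summed length-scaled level of each arm (CPM per kilobase of merged exons, y axis from 0) is plotted for each library, with the mean and SD of 3 libraries. The senescent libraries sit at 404 to 433 in the stress arm against 287 to 298, and at 170 to 202 in the metabolism arm against 289 to 307.

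Ratios of related members within a library do not depend on scaling between libraries. The Sesn2 to Sesn1 ratio of length-scaled levels was 2.00, 1.87 and 1.65 in quiescent and 5.70, 5.80 and 8.87 in senescent libraries. The Tnfrsf10b to Fas ratio was 0.481, 0.466 and 0.469 and then 1.67, 1.48 and 1.73, so the more abundant of these receptors changed place in all 3 senescent libraries. The same crossing was seen for Btg2 and Gadd45a, with 0.614, 0.617 and 0.664 in quiescent and 2.05, 1.86 and 2.72 in senescent libraries. The Plk2 to Plk3 ratio had means of 3.60 and 5.08, and the Xpc to Ddb2 ratio 6.09 and 15.9. Polh and Polk kept overlapping ratios of 0.840 to 1.09 and 0.984 to 1.03. Of 9 ratios examined, 8 had groups that did not overlap, among them Tnfrsf10b to Eda2r, Aen to Apaf1, and Rrm2b to the non-member Rrm2. Each of the 8 held a gene whose own groups did not overlap, as was so for 78.2% of all tested genes. This count is therefore not separate from the results of the single genes, and no share over all gene pairs was computed. An exact two-sided permutation test gave each of the 8 p = 0.1, the smallest that 3 against 3 libraries allow, with an adjusted p = 0.112 over the 9, so none can pass at 0.05.

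**Figure D4:**
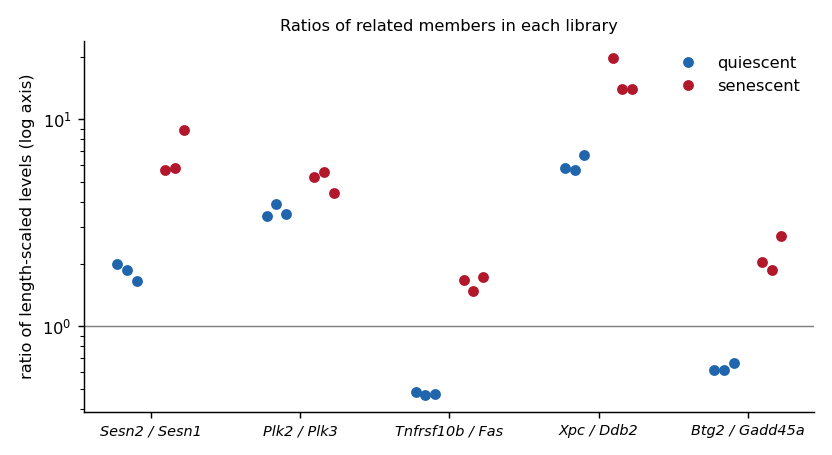
The ratio of length-scaled levels of 5 gene pairs is plotted on a log axis for each library, and the grey line is a ratio of 1. The overlapping Polh to Polk ratio is not among the plotted pairs. The Tnfrsf10b to Fas and Btg2 to Gadd45a ratios lie below 1 in the 3 quiescent libraries and above 1 in the 3 senescent ones.

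The genes around these effectors were read from 5 further lists. Trp53 itself rose from 74.4 ± 0.898 to 115 ± 13.6 CPM (log2 fold change 0.63), Mdm2 by 0.95, and Cdkn1a, the gene of the arrest protein p21, by 1.14, from 157 ± 4.80 to 346 ± 27.0 CPM. Of 33 tested p53 regulators and other p53 targets, 15 were higher and 14 lower (median -0.02). Over all tested genes 36.7% were higher and 37.8% lower (median -0.02), an even split as well. Lif, a cytokine gene, rose by 5.16, whereas Ckap2 and Gtse1, which belong to mitosis as well, fell by 1.87 and 1.30. Under library totals 9 genes of this list were higher. Over all 14065 tested genes the number higher also dropped there, from 5158 to 2952.

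Of 25 family relatives of the members, 10 were higher and 11 lower (median 0.08), against 36.7% and 37.8% of all tested genes. Ak4, the mitochondrial adenylate kinase gene, rose by 3.62 and Btg3 by 1.46, while the mitotic kinase gene Plk1 fell by 2.31 and Ak5 by 1.45. Thus Plk1 fell where Plk2 and Plk3 rose, and Ak4 rose where Ak1 changed little. Sesn3, the remaining sestrin gene, fell by 1.03.

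Of 22 genes of the caspase and death receptor machinery, 8 were higher and 9 lower (median -0.09). The shares over all tested genes, 36.7% higher and 37.8% lower, stand beside each list here. The necroptosis kinase gene Ripk3 rose by 1.85 and Cflar, which encodes the caspase 8 inhibitor FLIP, by 1.43. Eda, whose A2 form is the ligand of Eda2r, fell by 1.20 and the ubiquitin ligase gene Birc2 by 1.01. Of 32 nucleotide excision repair and translesion partners, 6 were higher and 15 lower (median -0.14), with Ercc1, which pairs with Xpf to cut DNA, up by 1.48 and Ercc8, a gene of transcription-coupled repair, by 0.70, and the dNTP hydrolase gene Samhd1 down by 2.02 and Cetn2, the Xpc partner centrin 2, by 1.05. Under library totals 24 of these were lower, where 52.9% of all tested genes were lower. Of 23 genes of the ATF4 integrated stress response, 16 were higher and 3 lower, with a median of 0.80 against -0.02 over all tested genes. The cystine carrier gene Slc7a11 rose by 3.00 and the serine synthesis gene Phgdh by 2.99, while Sesn3 and Stc2 fell by 1.03 and 0.59.

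**Figure D5:**
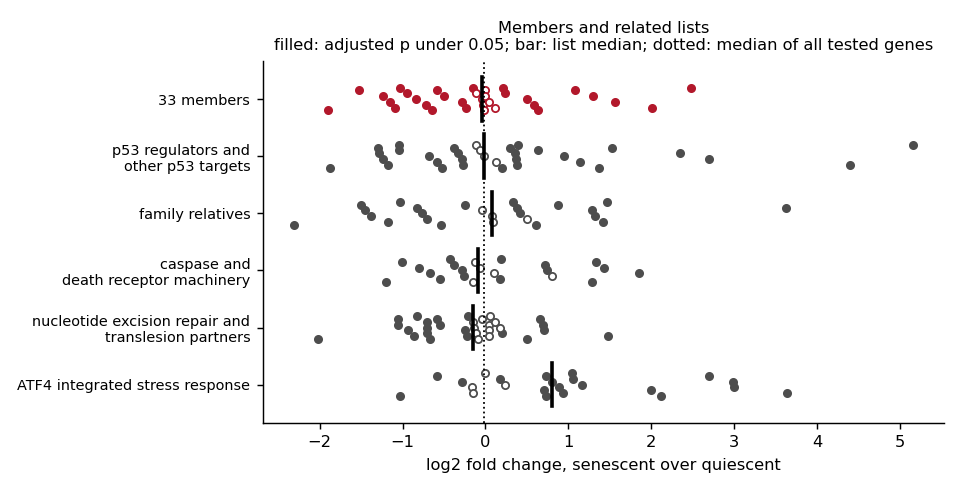
Each point is the log2 fold change of a tested gene, senescent over quiescent, in the 33 members and in 5 related lists; filled points passed at an adjusted p under 0.05, bars are list medians and the dotted line is the median of all tested genes. The medians lie between -0.14 and 0.08 except in the ATF4 list, at 0.80.

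Senescent replicate 3 differed most from its group. Of all tested genes, 25.5% lay at least 0.3 on the log2 scale from the mean of the other senescent libraries, against 10.0% to 18.5% for the other 5 libraries treated the same way. Among the members 9 did. Gdf15 (0.41), Btg2 (0.39), Plk3 (0.37), Eda2r (0.37), Aen (0.31) and Sesn2 (0.31) were higher there, and Perp (-0.75), Ephx1 (-0.33) and Sesn1 (-0.31) lower. Without that library 10 members were higher and 15 lower, against 5331 and 5416 of the 14282 genes tested then.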

How the data were processed

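The file the authors deposited holds unnormalized counts, 1 row per gene symbol, whole numbers whose totals differ between libraries. Per the submitters' processing notes, the build was mm10, and edgeR 3.32.1 and limma 3.46.0 were named without a role; the aligner, counter and strand setting were not stated there. Ribosomal RNA was depleted and directional libraries were read as 100 bp pairs, per the labels' protocols. Counts from PCR reads carry no molecular identifiers, so depth covers counting error only.

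The test was edgeR's robust quasi-likelihood F test (version 4.0.16, R 4.3.3) after TMM and filterByExpr with a minimum count of 10, with Benjamini-Hochberg adjustment over 14065 genes. Standard errors are the size of the log2 fold change over the root of F. Replicate pairs differed beyond sampling noise (chi-square per degree of freedom 2.27 to 20.1). Alternatives used DESeq2 1.42.0, limma-voom (limma 3.58.1), other scalings, filters and thresholds, a replicate block, and each library left out. Exon lengths came from GENCODE M21 on GRCm38, the assembly of mm10, which matched 24366 of 25239 symbols.

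Members, arms and lists were chosen with earlier results of these data known. All members are named. Those past 2-fold are given by library, and of each list up to 2 higher and 2 lower genes whose mean log2 CPM reached 2, beside Trp53, Mdm2 and Cdkn1a. A gene that this rule names is not reported here. Other named genes were chosen after their values were seen. The repeat table was not used.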

Additional observations from a re-analysis of the deposited data

How the results depend on the processing

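Over the alternatives, 10 higher and 15 lower members became 5 and 8 when a 1.5-fold change was tested directly, and all genes 2138 and 2460. In that test the death arm had 1 higher and 2 lower, the repair arm 1 lower, the metabolism arm 0 higher and the stress arm 2 lower. The other p53 targets had 8 higher and 7 lower, the family relatives 6 higher and the caspase list 3 lower. The repair partners had 1 higher and 6 lower, and the ATF4 list 1 lower. Arm and list counts not given for a setting stayed within 1.5-fold of the main ones. Under library totals 2952 genes were higher and 7435 lower, the death arm had 2 higher and the repair arm 5 lower; the other p53 targets had 9 higher, the repair partners 24 lower and the ATF4 list 6 lower. Triap1 (-0.05), Zmat3 (-0.08), Xpc (-0.18), Rrm2b (-0.26) and Rps27l (-0.30) changed sign there, where the median of all genes was -0.32. A minimum count of 50 removes scarce genes such as Perp and Ddb2. With it the death arm had 2 higher and the repair arm 1 lower. Of the 11981 genes tested with it, 4565 were higher and 4717 lower. Without one library each, members higher ran from 9 to 10 and lower from 14 to 15. All genes then ran from 4860 to 5331 higher and from 4901 to 5416 lower. Of 559 values of the 33 members under alternatives, 41, in 19 genes, crossed the threshold or changed sign with a call on either side. Same-numbered libraries did not deviate together (correlations 0.066, -0.01 and 0.072), and not every library correlated best with its own number. With the replicate block 9 members were higher and 15 lower, against 5124 and 5281 of all genes. Triap1 did not pass with that block (adjusted p = 0.0562 in edgeR). Depth limits the scarce genes most, Ddb2 with 13 counts in its lowest library and Perp with 24.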
